A study of Rattus norvegicus with 18 samples.

Results

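The comparison described here followed rat kidney cells that stayed in aristolochic acid from 24 h to 72 h. Its members were the 3 arrays of cells exposed for 72 h and the 3 arrays of cells exposed for 24 h, chosen by their titles, which is 6 of the 18 arrays in the study. NRK-52E is an established rat line that the labels call a renal proximal tubular line, from the Osborne-Mendel strain. Cells grown to confluence were exposed to aristolochic acid (1.65 µM, dissolved in DMSO at 0.1%) or to that DMSO level without it. Exposure lasted 6, 24 or 72 h, and each of the 6 groups had 3 biological replicates. The groups are called AA 24 h, AA 72 h, DMSO 24 h and DMSO 72 h below, and DMSO was present in every culture. The dose was one that the labels call a low inhibitory concentration at 72 h. Which plate or day a replicate came from is not stated, and the p-values rest on the spread among these samples alone, which may be technical. The 6 DMSO arrays of the same hours gave the change that comes with time in culture alone, and no array was used in both arms.

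Aristolochic acids are nitrophenanthrene carboxylic acids of Aristolochia plants. Cells reduce their nitro group, chiefly through the quinone reductase Nqo1, and the product binds to purines as bulky DNA adducts that block RNA and DNA polymerases. The kidney proximal tubule takes the compounds up and is the main site of injury in people. Stalled polymerases activate p53, the transcription factor that switches on cell cycle inhibitors and pro-death genes, and the DREAM and RB complexes that p53 and its target Cdkn1a engage then silence the genes of DNA replication and mitosis.

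Values were log2 expression values from Affymetrix rat arrays. Correlations between replicate arrays lay between 0.996 and 0.999, and the median SD between replicates was 0.11 on the log2 scale. The control probe sets for the 3′ and 5′ ends of beta-actin differed by 1.18 to 1.27 (log2) on the AA 24 h arrays and by 1.85 to 2.16 on the AA 72 h arrays, with no overlap (exact permutation test, two-sided, p = 0.1, the smallest that 3 against 3 arrays can give). In DMSO the gap went from 1.18 to 1.27 at 24 h to 1.29 to 1.45 at 72 h, also without overlap (exact permutation p = 0.1). The same gap of Gapdh rose by 0.15 in AA and by 0.01 in DMSO. The 5S rRNA control rose by 2.08 in AA and fell by 1.69 in DMSO, without overlap in either arm. The BioB spike-in, a bacterial RNA added in fixed amount, averaged 8.37 at AA 24 h and read 9.39, 8.95 and 8.67 on the AA 72 h arrays, and it changed by -0.09 in DMSO. These values moved with the groups, and their part in the results was not tested. As a check of the label, 27 of 34 proximal tubule markers on the array did not reach the filter on low values. The 7 that did were Aqp1, Dab2, Gatm, Ggt1, Mme, Slc4a4 and Slc7a9, so most defining markers of the proximal tubule were near the floor of the array. Fibroblast markers reached the filter for 7 of 18 genes, endothelial markers for 2 of 13 and immune markers for 2 of 17.

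From 24 to 72 h of exposure 29 of 37 p53 targets, 19 of 31 NRF2 targets and 15 of 26 ATF4 targets rose in AA. Of the genes over 300 kb 144 of 182 fell in AA, and of the cholesterol genes 18 of 24 fell in AA and 19 of 24 in DMSO. Of 9015 genes tested, 4752 passed the test (limma, Benjamini-Hochberg adjusted p under 0.05), which is 52.7% of the genes. The higher genes at AA 72 h numbered 2700 (30%) and the lower ones 2052 (22.8%). In DMSO over the same hours 3095 genes passed (34.3%), with 1551 higher (17.2%) and 1544 lower (17.1%). The median change of all genes was 0.05 in AA and -0.00 in DMSO. A change of at least 1 on the log2 scale was found in AA for 443 genes that rose (4.91%) and 494 that fell (5.48%), and in DMSO for 179 that rose (1.99%) and 203 that fell (2.25%).

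The change in AA differed from the change in DMSO for 2921 genes (32.4%), of which 1683 (18.7%) moved upward in AA relative to DMSO and 1238 (13.7%) downward. Of the 2700 genes that rose in AA, 823 rose in DMSO too, and 174 fell in DMSO. The difference passed its test in the same direction for 1279 of the 2700, and it did not pass for 1399. Of the 2052 genes that fell in AA, 768 fell in DMSO too and 171 rose there, and the difference passed in the same direction for 903. The difference passed for 335 of the 443 genes that rose at least 2-fold and for 344 of the 494 that fell at least 2-fold.

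**Figure D1:**
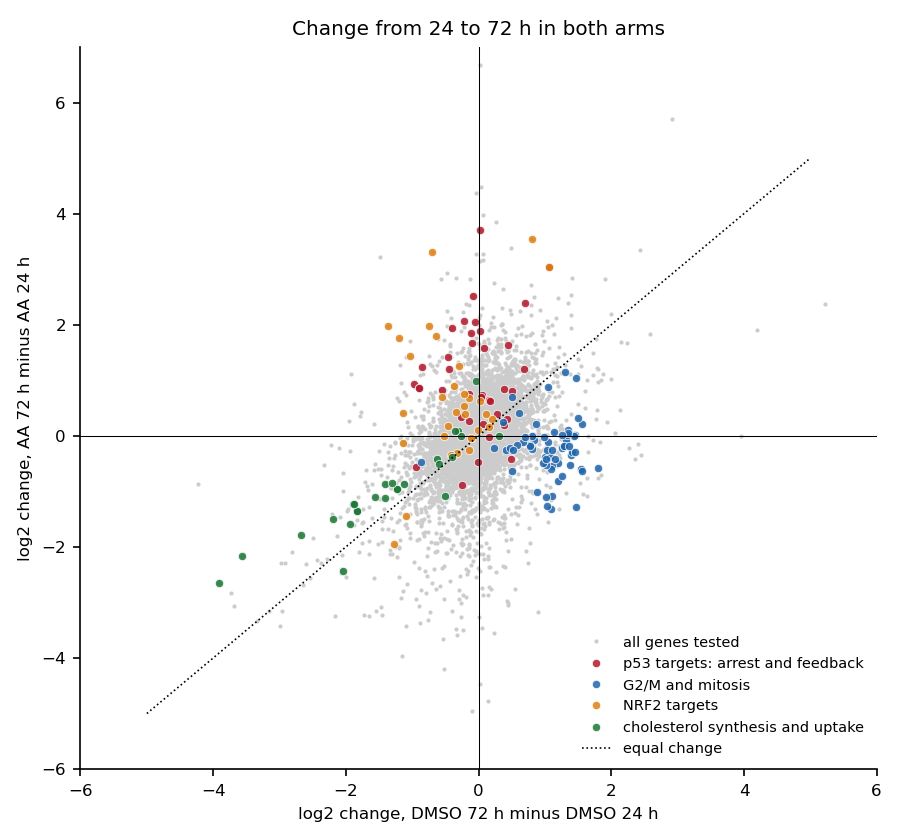
Log2 change from 24 to 72 h of every gene tested, with DMSO on the horizontal axis, AA on the vertical axis and a dotted line of equal change. Most p53 targets lie above 0 in AA and spread around 0 in DMSO, most G2/M genes lie near or below 0 in AA and above 0 in DMSO, and most cholesterol genes lie below 0 in both.

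**Figure D2:**
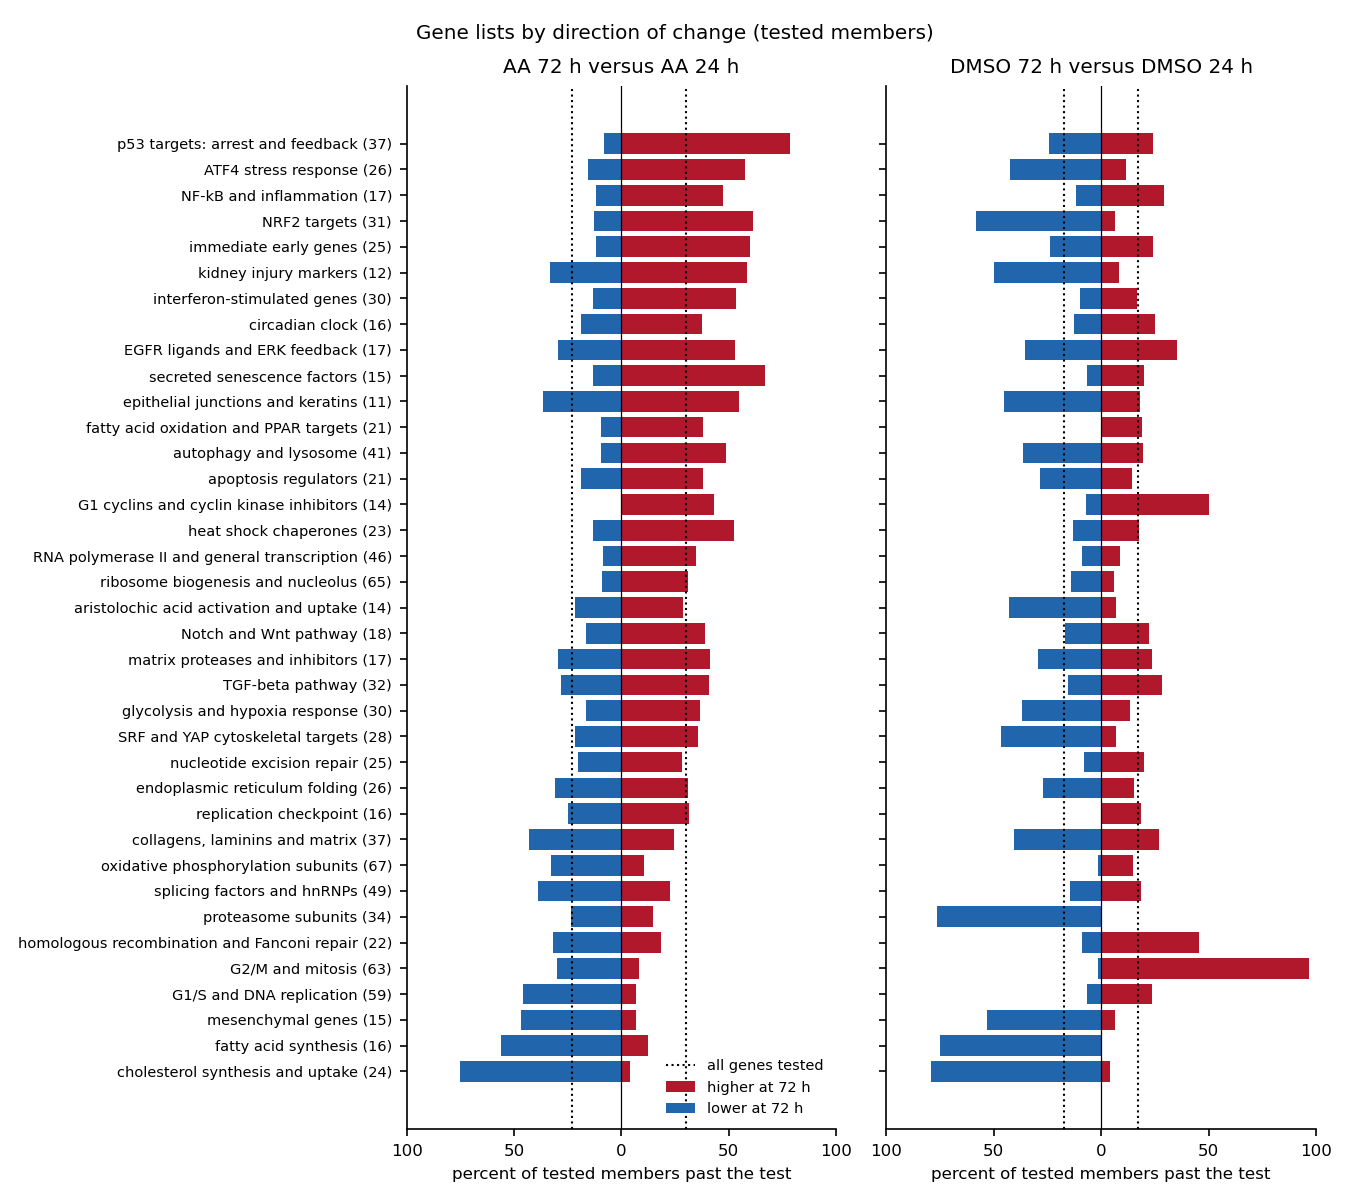
Percent of the tested members of each gene list that rose (red, right) or fell (blue, left) from 24 to 72 h in AA and in DMSO; dotted lines give the share over all genes tested and the number of tested members stands in brackets. The p53 list has its red bar at 78.4% in AA, and the G2/M list has its red bar at 96.8% in DMSO and 7.94% in AA.

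Most tested genes that p53 switches on rose. Cdkn1a, which encodes the cyclin kinase inhibitor p21, read log2 11.998, 12.035 and 12.098 on the AA 24 h arrays and 14.57, 14.63 and 14.48 on the AA 72 h arrays. The groups did not overlap, and the DMSO arrays stayed between 10.65 and 11.02 at both times. Cdkn1a rose 5.73-fold in AA (log2 change 2.52 ± 0.09, SE of the fit, adjusted p = 8.21e-14), and its change exceeded that in DMSO by 2.60 (adjusted p = 4.44e-11). Mdm2, the ubiquitin ligase that degrades p53, read 11.45, 11.79 and 11.79 at AA 24 h and 12.84, 12.70 and 13.20 at AA 72 h. In DMSO it read 11.32, 11.23 and 11.20 at 24 h and 10.55, 10.48 and 10.17 at 72 h. Mdm2 thus rose 2.36-fold in AA and fell 1.80-fold in DMSO, with no overlap in either arm (difference 2.09, adjusted p = 2.73e-08).

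Other targets moved the same way in AA. Ccng1, a cyclin that p53 induces, rose by 1.21 ± 0.07 in AA and changed by -0.44 in DMSO. The lipid-binding Akt antagonist Phlda3 read 10.51, 10.68 and 10.57 at AA 24 h and 12.47, 12.65 and 12.77 at AA 72 h, a 4.13-fold rise. Its DMSO change was -0.05 (adjusted p = 0.761). The nuclease Aen rose 5.26-fold in AA and 1.62-fold in DMSO, and the difference of 1.70 passed its test. The receptor tyrosine kinase Epha2 rose 4.19-fold, and the oxidoreductase regulator Sesn2 rose 3.60-fold, from 9.39, 9.70 and 9.88 to 11.56, 11.44 and 11.52. Gdf15, a stress-induced secreted factor, was near the floor at AA 24 h, at 2.38 on all 3 arrays. It read 5.33, 6.32 and 6.61 at AA 72 h and stayed between 2.37 and 2.43 in DMSO. A fold against such a floor depends on the background model, so its log2 change of 3.71 is given as a description.

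Of the 37 p53 targets tested (44 were on the array and 7 did not pass the filter), 29 rose (78.4%) and 3 fell, with a median change of 0.84. The 29 include Gdf15, which passed the filter only through its AA 72 h arrays, the group where it was high. Its rise therefore adds nothing to the count. The share that rose over all genes was 30%. In DMSO 9 rose and 9 fell, with a median of 0.02. The difference between the arms passed for 23 upward, Gdf15 among them, and 2 downward, against 18.7% and 13.7% over all genes. The 3 that fell, named after their values were seen, were the tetraspanin Cd82 (-0.89), the sestrin Sesn1 (-0.48) and the damage-recognition gene Ddb2 (-0.42).

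The pro-death gene Bbc3, which encodes PUMA, read 8.19, 8.34 and 8.34 at AA 24 h and 9.91, 10.03 and 9.98 at AA 72 h. DMSO arrays lay between 7.65 and 7.96 at both times. The survival gene Bcl2l1, which encodes BCL-XL, read 7.16, 7.19 and 7.27 at AA 24 h and 8.56, 8.99 and 8.65 at AA 72 h. Bbc3 rose 3.20-fold and Bcl2l1 2.89-fold, so a pro-death and a survival gene both rose. A second probe set of Bcl2l1 did not pass the test. Bok, a pro-death BCL-2 relative, fell by 0.83 in AA and by 0.60 in DMSO, and the difference did not pass (adjusted p = 0.289). Of 21 apoptosis regulators tested, 8 rose and 4 fell in AA, near the shares over all genes. Among 14 G1 cyclins and kinase inhibitors, 6 rose and none fell in AA, and 7 rose and 1 fell in DMSO. Over all genes 30% rose and 22.8% fell in AA, and 17.2% rose and 17.1% fell in DMSO. The retinoblastoma gene Rb1 rose by 0.73 in AA and changed by 0.13 in DMSO. Cyclin D1 (Ccnd1) rose by 0.41 in AA, and cyclin D3 (Ccnd3) rose by 0.52 in both arms.

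**Figure D3:**
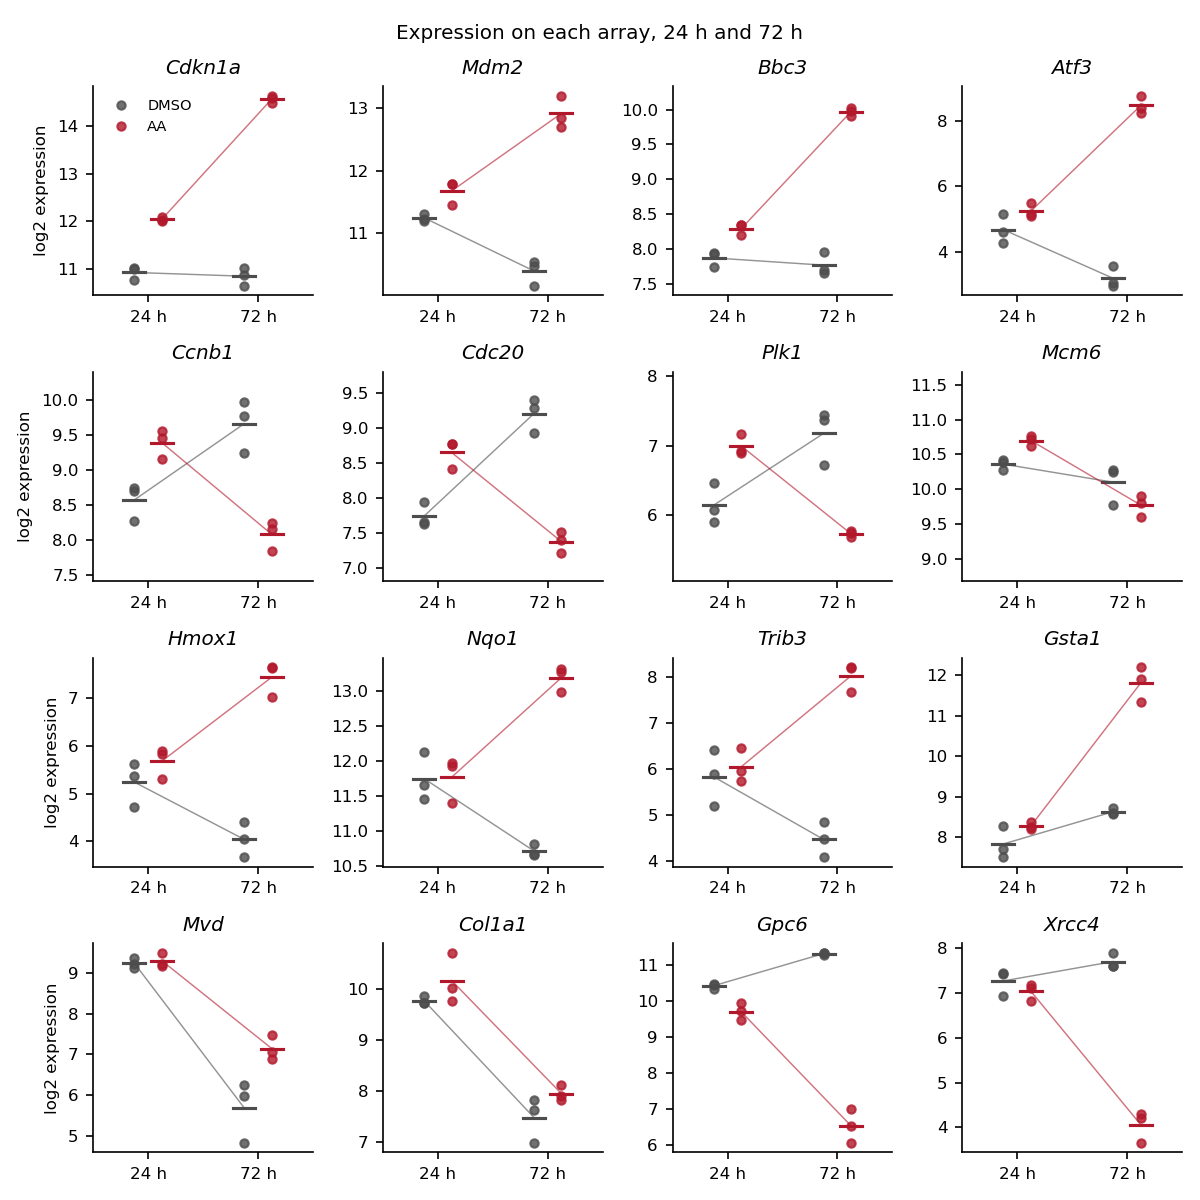
Log2 expression of 16 genes on each of the 3 arrays (points) of DMSO (grey) and AA (red) at 24 and 72 h, with horizontal bars at the group means; the vertical axes span at least 3 log2 units and differ between panels. Cdkn1a and Bbc3 separate the AA 72 h arrays from all others, Ccnb1, Cdc20 and Plk1 cross over between the arms, and Mvd and Col1a1 fall in both.

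Genes of G2 and mitosis parted between the arms. In DMSO 61 of the 63 tested members of the list rose from 24 to 72 h (96.8%), and 1 fell. Their median DMSO change was 1.09. In AA 5 rose (7.94%) and 19 fell (30.2%), with a median of -0.23. The shares over all genes were 17.2% higher in DMSO and 30% higher and 22.8% lower in AA. The difference between the arms was lower in AA for 53 of 63 and higher for none, against 13.7% over all genes, with a median of -1.37. RNA here came from whole cultures, so fewer dividing cells and less RNA per cell cannot be told apart.

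The starting level differed as well. At 24 h the AA mean lay above the DMSO mean for 63 of the 63 genes, with a median gap of 0.84. At 72 h it lay below for 56 of 63, with a median gap of -0.53. Cyclin B1 (Ccnb1), the partner of the mitotic kinase Cdk1, read 9.56, 9.46 and 9.16 at AA 24 h and 7.84, 8.24 and 8.15 at AA 72 h. In DMSO it read 8.28, 8.74 and 8.70 at 24 h and 9.78, 9.98 and 9.24 at 72 h. Ccnb1 fell 2.49-fold in AA and rose 2.13-fold in DMSO, with no overlap between the times in either arm (difference -2.41, adjusted p = 3.22e-06).

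Cdc20, the activator of the anaphase-promoting complex, read 8.77, 8.77 and 8.42 at AA 24 h and 7.52, 7.39 and 7.21 at AA 72 h. In DMSO it rose 2.77-fold, from 7.65, 7.95 and 7.62 to 9.29, 9.41 and 8.94. Cdc20 had the largest difference named in the list, -2.75 (adjusted p = 5.75e-07). The mitotic kinase Plk1 fell 2.40-fold in AA, from 6.90, 7.17 and 6.92 to 5.68, 5.74 and 5.78, and rose 2.04-fold in DMSO. The spindle protein Dlgap5 fell by 1.11 in AA and rose by 1.02 in DMSO. Cdk1 itself fell by 0.38 ± 0.10 in AA (adjusted p = 0.00433), and its change differed from that in DMSO by -1.39. The proliferation marker Mki67 changed by -0.26 ± 0.11 in AA and did not pass (adjusted p = 0.058), while it rose 2.04-fold in DMSO. Top2a, the topoisomerase of dividing cells, changed by 0.00 ± 0.16 in AA (adjusted p = 0.992) and rose 2.72-fold in DMSO. The centromere protein gene Cenpt rose 2.23-fold in AA and 2.47-fold in DMSO. The other 4 that rose in AA, named after their values were seen, were Kif18b, Aspm, Espl1 and Kif23.

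**Figure D4:**
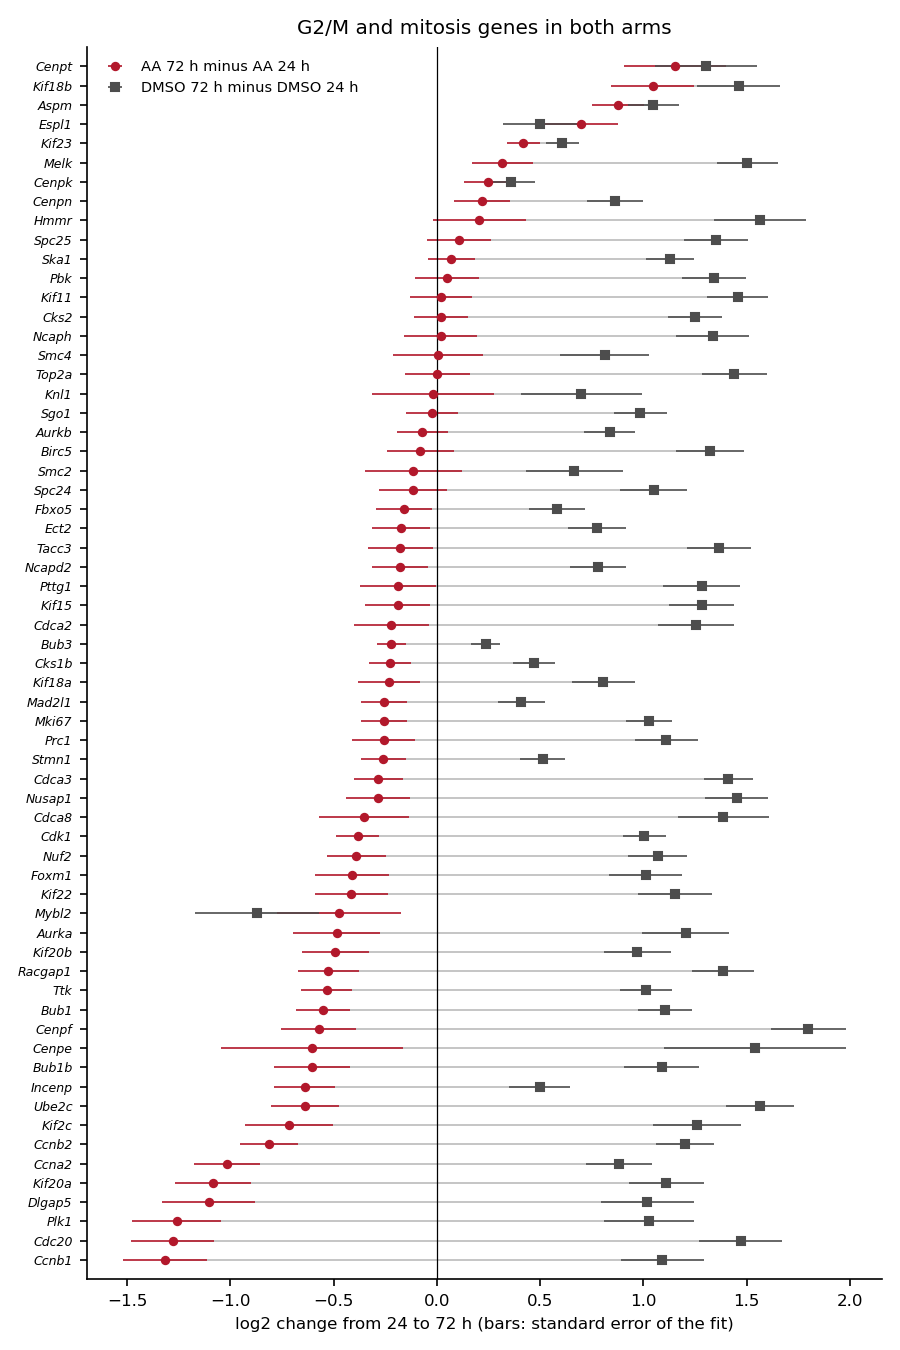
Log2 change from 24 to 72 h of each tested G2/M gene in AA (red circles) and in DMSO (grey squares), ordered by the AA change, with bars of 1 standard error of the fit. The squares lie to the right of 0 for all genes but Mybl2, and the circles range from -1.32 for Ccnb1 to 1.15 for Cenpt.

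The promoters of such genes carry short sequence elements that the cell cycle complexes use. The CHR element (TTTGAA) is bound by the DREAM and MYB-MuvB complexes, CCAAT boxes by NF-Y, and E2F sites by E2F, DREAM and RB complexes. RefSeq promoters (GRCr8, 250 bases before to 50 after the start) were searched on both strands. Of the 54 tested G2/M genes that had a promoter in the table, 63.0% held TTTGAA, 75.9% held CCAAT and 53.7% held both. Over all promoters of the table the shares were 18.3%, 37.5% and 7.41%, and over the tested genes 12.1%, 39.9% and 5.14%. The 120 bases before the start are shown for the 3 G2/M genes that fell most in AA, with TTTGAA and CCAAT in capitals.
Cdc20, chr5:137255800-137255919, minus strand: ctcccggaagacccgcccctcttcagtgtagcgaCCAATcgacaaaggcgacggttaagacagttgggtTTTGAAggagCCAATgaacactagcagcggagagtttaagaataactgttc
Ccnb1, chr2:33655226-33655345, minus strand: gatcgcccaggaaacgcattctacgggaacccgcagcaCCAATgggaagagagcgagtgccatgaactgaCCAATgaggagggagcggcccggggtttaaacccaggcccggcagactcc
Plk1, chr1:186147538-186147657, plus strand: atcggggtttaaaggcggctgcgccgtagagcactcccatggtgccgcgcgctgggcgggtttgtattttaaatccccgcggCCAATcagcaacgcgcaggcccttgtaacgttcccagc
Cdc20 held TTTGAA between a pair of CCAAT boxes. Ccnb1 held only CCAAT in this window, and the TTTGAA of Plk1 began 7 bases after the start, outside the stretch shown. A match is a description of letters and not a measured binding site.

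Many genes of the G1/S transition and DNA replication fell in AA. Of 59 tested, 27 fell (45.8%, against 22.8% over all genes) and 4 rose, with a median of -0.25. In DMSO the median was 0.13, with 14 higher and 4 lower, against 17.2% and 17.1% over all genes. The count of 14 dropped to 9 without DMSO 24 h replicate 3, DMSO 72 h replicate 1 or DMSO 72 h replicate 2. The difference was lower in AA for 20 and higher for 1, against 13.7% and 18.7% over all genes. At 24 h the AA mean lay above the DMSO mean for 56 of the 59, with a median gap of 0.48, and at 72 h for 33, with a median gap of 0.08. Primase subunit Prim2 fell 2.23-fold, from 8.27, 8.23 and 8.11 to 7.42, 6.69 and 7.03. Gins1, a part of the replicative helicase, fell 2.21-fold, from 7.18, 7.21 and 7.04 to 6.24, 6.11 and 5.66. The helicase ring subunit Mcm6 fell 1.90-fold, from 10.72, 10.76 and 10.61 to 9.80, 9.61 and 9.91. In DMSO none of these passed the test, with changes of 0.20, 0.27 and -0.26. The lagging-strand enzymes Lig1 and Fen1 fell by 0.88 and 0.87. Pcna, the sliding clamp and also a p53 target, changed by -0.02 ± 0.06 (adjusted p = 0.805), with arrays between 12.92 and 13.03 at both times. The 4 that rose, named after their values were seen, were Tyms (0.84), Rnaseh2a (0.73), Timeless (0.29) and Dut (0.27).

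E2F letters (TTGGCGC and its relative with the letters TTCGCGC, both strands) stood in 61.5% of the promoters of the G1/S genes that fell in AA (16 of 26 with a promoter) and in 43.1% of those of the whole tested list (22 of 51). The share over the tested genes was 8.41%, over all genes that fell in AA 8.55%, and 3.66% of all promoters listed held them. The 120 bases before the start of Mcm6 and Gins1 are shown with E2F letters and CCAAT boxes in capitals, which read as ATTGG where the box lies on the other strand.
Mcm6, chr13:42404353-42404472, minus strand: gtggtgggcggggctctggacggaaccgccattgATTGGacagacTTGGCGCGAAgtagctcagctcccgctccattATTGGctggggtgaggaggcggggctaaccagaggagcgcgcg
Gins1, chr3:160184800-160184919, plus strand: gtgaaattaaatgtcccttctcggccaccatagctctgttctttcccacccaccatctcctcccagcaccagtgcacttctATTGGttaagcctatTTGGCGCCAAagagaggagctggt
In both, a match on each strand overlapped the other, and the pair counts as 1 site. The matches began 75 and 72 bases before the start in Mcm6, and 24 and 21 in Gins1. In Mcm6 they read TTGGCGC on 1 strand and TTCGCGC on the other. A further match of Mcm6 reaches over the end of the stretch shown and is in lower case. Mcm6 also held matches on both strands that began 138 and 135 bases before the start, ahead of the stretch shown. Prim2, which fell most in the list, held no E2F letters in its window.

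DNA repair genes moved in both directions in AA. The breast cancer gene Brca1 read 4.29, 5.00 and 4.55 at AA 24 h and 2.81, 2.77 and 2.97 at AA 72 h, so the later group was near the floor. DMSO arrays of Brca1 lay between 2.81 and 3.57, near the floor at both times. Fancl, the ubiquitin ligase of the Fanconi pathway, fell 2.94-fold, from 8.68, 8.58 and 8.50 to 7.05, 7.20 and 6.85, and changed by 0.00 in DMSO. Among 22 genes of homologous recombination and the Fanconi pathway 7 fell and 4 rose in AA, and 10 rose and 2 fell in DMSO. Over all genes 22.8% fell and 30% rose in AA, and 17.2% rose and 17.1% fell in DMSO. The DMSO count of 10 was 5 without DMSO 72 h replicate 2 and 6 without DMSO 24 h replicate 2 or 3. The difference between the arms was lower in AA for Brca1, Bard1, Palb2, Rad51b, Rad54l, Xrcc2, Blm, Exo1, Fancd2 and Fancl. It was higher for Rbbp8, Mus81 and Slx4, against 13.7% lower and 18.7% higher over all genes. All of these but Brca1, Rad51b and Fancl were named after their values were seen. Xrcc4, which joins broken ends with ligase IV, fell by 2.97, from 7.17, 7.11 and 6.82 to 4.31, 4.22 and 3.66. It changed by 0.43 in DMSO without passing the test, and the difference of -3.40 had an adjusted p of 2.50e-08. Nucleotide excision repair, which removes bulky adducts, had 7 of 25 members higher and 5 lower, and leaving out AA 24 h replicate 1 or 2 or AA 72 h replicate 1 left 3 lower. Its damage sensor Xpc rose by 0.81 in AA and by 0.50 in DMSO. The checkpoint kinase Chek2 fell by 1.24 in AA, from 5.44, 5.35 and 4.95 to 3.41, 4.45 and 4.16. Its replication checkpoint list was mixed in AA. Clspn, Topbp1 and Wee1 also fell past the test, while H2ax, Hus1, Atrip, Rad1 and Timeless rose. The rise of Atrip did not pass without AA 72 h replicate 2 (adjusted p = 0.169). Topbp1, Wee1, Rad1 and Timeless were named after their values were seen.

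NRF2 is the transcription factor of antioxidant and detoxifying genes. Of 31 tested NRF2 targets 19 rose in AA (61.3%, against 30% over all genes) and 4 fell (12.9%, against 22.8%), with a median of 0.43. In DMSO 2 rose and 18 fell (58.1%, against 17.1%), with a median of -0.34. The difference was higher in AA for 20, against 18.7% over all genes, and lower for 1. Symbols that start with LOC or RGD were left out of all rankings here. Among the other genes with both groups above the floor and no overlap of arrays, the glutathione transferase Gsta1 rose most. It read 8.19, 8.37 and 8.26 at AA 24 h and 11.33, 12.20 and 11.90 at AA 72 h, an 11.6-fold rise (log2 3.54 ± 0.21, adjusted p = 1.15e-10). In DMSO Gsta1 rose 1.74-fold. The growth inhibitor Osgin1 rose 9.92-fold, from 4.32, 4.16 and 4.68 to 6.75, 8.14 and 8.21. The heme-degrading enzyme Hmox1 read 5.91, 5.31 and 5.84 at AA 24 h and 7.03, 7.65 and 7.66 at AA 72 h, and in DMSO it fell from 5.37, 5.63 and 4.73 to 4.40, 4.05 and 3.67. Hmox1 rose 3.39-fold in AA and fell 2.30-fold in DMSO, with no overlap in either arm. The epoxide hydrolase Ephx1, also a p53 target, rose 8.22-fold in AA and 2.08-fold in DMSO. The aldo-keto reductase Akr1b8 rose 3.94-fold in AA and fell 1.69-fold in DMSO.

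Nqo1, the reductase that activates aristolochic acid, read 11.40, 11.98 and 11.93 at AA 24 h and 12.99, 13.32 and 13.28 at AA 72 h. In DMSO it read 12.12, 11.66 and 11.46 at 24 h and 10.67, 10.65 and 10.81 at 72 h. It rose 2.69-fold in AA and fell 2.05-fold in DMSO (difference 2.47 ± 0.23, adjusted p = 1.53e-07). Of 14 tested genes of aristolochic acid activation and transport 4 rose and 3 fell in AA, against 30% and 22.8% over all genes. The acetyltransferase Nat2 rose by 0.74, and the exporters Abcc5 and Abcc4 fell by 2.02 and 1.44. A second probe set of Abcc5 changed in the opposite direction. The 4 NRF2 targets that fell in AA, the last 3 of them named after their values were seen, were Abcc4, Gsr, Ugdh and Gsta4, and all 4 had negative changes in DMSO too.

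ATF4 is the transcription factor made when translation is slowed by amino acid lack or protein misfolding. Of 26 tested targets 15 rose in AA (57.7%, against 30% over all genes) and 4 fell, with a median of 0.53. In DMSO 3 rose and 11 fell (42.3%, against 17.1%), and the median was -0.23. The difference was higher in AA for 17 and lower for 2, against 18.7% and 13.7% over all genes. Atf3, a stress-induced repressor, read 5.16, 5.09 and 5.50 at AA 24 h and 8.23, 8.39 and 8.77 at AA 72 h. In DMSO Atf3 read 4.26, 4.62 and 5.17 at 24 h and 3.56, 2.98 and 3.06 at 72 h. Atf3 rose 9.29-fold in AA. Its DMSO 72 h arrays were near the floor, so the size of the difference between the arms is not given. The pseudokinase Trib3 rose 3.94-fold in AA, from 5.74, 5.95 and 6.45 to 7.67, 8.19 and 8.22, and fell 2.57-fold in DMSO. Ppp1r15a, the phosphatase subunit that restores translation, rose 2.48-fold in AA and changed by 0.01 in DMSO. The 4 that fell, named after their values were seen, were Pck2, Phgdh, Psat1 and Psph, and the last 3 encode the enzymes of serine synthesis.

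Of 26 endoplasmic reticulum folding genes 8 rose and 8 fell in AA (30.8% each), close to the shares over all genes. The chaperone Hyou1 rose 2.56-fold in AA, from 8.56, 8.46 and 8.29 to 9.87, 10.04 and 9.47, a call that was lost when its probe sets were averaged. Sel1l, a part of the degradation machinery of that compartment, fell 2.27-fold in AA, and by 1.10 (log2) in DMSO. Among 23 heat shock chaperones 12 rose and 3 fell in AA, and 4 rose and 3 fell in DMSO. Over all genes 30% rose and 22.8% fell in AA, and 17.2% rose and 17.1% fell in DMSO. The heat shock regulator Hsf1 rose by 1.06 in AA and changed by -0.08 in DMSO.

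Immediate early genes are the first to answer growth and stress signals. In AA 15 of 25 rose (60.0%, against 30% over all genes) and 3 fell, against 22.8%. In DMSO 6 rose and 6 fell, and without DMSO 72 h replicate 2 only 3 rose. The difference was higher in AA for 14 and lower for none, against 18.7% and 13.7% over all genes. Klf4, a transcription factor of growth arrest, read 6.02, 5.98 and 5.81 at AA 24 h and 8.35, 8.53 and 8.89 at AA 72 h, a 6.26-fold rise. Jun, a subunit of AP-1, rose 2.87-fold in AA and 1.35-fold in DMSO. The 3 that fell in AA, named after their values were seen, were Egr2 (-0.68), Fos (-0.57) and Junb (-0.41), and each had a negative change in DMSO.

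Interferon-stimulated genes rose for 16 of 30 in AA (53.3%, against 30% over all genes) and fell for 4, against 22.8%. Their median change was 0.31. In DMSO 5 rose and 3 fell, with a median of 0.07, while 2 rose without DMSO 24 h replicate 3, 3 without DMSO 72 h replicate 2 and 8 in a fit of only the arrays compared. The difference passed for 10 upward and 2 downward, against 18.7% and 13.7% over all genes. The exonuclease Isg20 rose 4.38-fold in AA, from 7.58, 7.12 and 7.66 to 9.35, 9.85 and 9.55. Tap1, the peptide pump of antigen presentation, rose 3.70-fold, from 6.88, 6.93 and 6.97 to 8.51, 8.95 and 8.97, and changed by -0.26 in DMSO. The regulator Irf7 rose 2.74-fold and the ubiquitin-like Isg15 rose 2.42-fold in AA, while Isg15 fell 1.54-fold in DMSO. Mx2 fell by 1.67 in AA to a mean near the floor, and by 1.06 without AA 24 h replicate 3. Inflammatory genes of the NF-kB list that reached the filter were 17 of 39. The adhesion receptor Icam1 had tight replicates, at 11.96, 11.95 and 11.96 at AA 24 h and 13.65, 13.82 and 13.84 at AA 72 h. It rose 3.52-fold in AA and 1.94-fold in DMSO, and the difference was 0.86 ± 0.09 (adjusted p = 6.49e-07). The macrophage growth factor Csf1 rose 3.99-fold in AA and by 1.10 (log2) in DMSO (difference 0.89, adjusted p = 0.0141). Named after their values were seen, Nfkb1 (-0.50) and Tnfaip8 (-0.53) were the only members of this list that fell past the test in AA. Il33, also so named, stayed near the floor in AA (means of 2.94 and 2.93). In DMSO its mean went from 3.02 at 24 h to 6.97 at 72 h.

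Most tested genes of cholesterol synthesis fell in both arms. Of 24 tested, 18 fell and 1 rose in AA, with a median of -1.02, and 19 fell and 1 rose in DMSO, with a median of -1.36. The shares that fell over all genes were 22.8% in AA and 17.1% in DMSO. Mvd, which makes isopentenyl diphosphate from mevalonate, read 9.18, 9.23 and 9.50 at AA 24 h and 6.89, 7.47 and 7.06 at AA 72 h. In DMSO it read 9.13, 9.21 and 9.37 at 24 h and 5.97, 6.24 and 4.82 at 72 h. Mvd fell 4.47-fold in AA and 11.8-fold in DMSO (difference 1.40, adjusted p = 0.0108). The sterol reductase Tm7sf2 fell by 2.64 (log2) in AA and by 3.91 in DMSO. The mevalonate kinase Mvk fell 5.40-fold in AA and 4.10-fold in DMSO. The difference was higher in AA, that is a smaller fall or a rise, for 9 of the 24, against 18.7% over all genes. The count of 9 was 4 without AA 24 h replicate 1, AA 24 h replicate 2, AA 72 h replicate 3 or DMSO 72 h replicate 3, and 5 without DMSO 24 h replicate 2. Abca1, the cholesterol exporter and the only gene of the list that rose in AA (0.98), was named after its value was seen.

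Fatty acid synthesis genes fell for the larger part. Of 16 tested genes 9 fell and 2 rose in AA, and 12 fell and none rose in DMSO. Over all genes 22.8% fell and 30% rose in AA, and 17.1% fell and 17.2% rose in DMSO. The elongase Elovl6 fell 4.36-fold in AA and 2.52-fold in DMSO. Acaca, the first enzyme of the pathway, fell 3.02-fold in AA, from 9.92, 10.12 and 10.03 to 8.48, 8.58 and 8.23, and 2.13-fold in DMSO. The difference between the arms did not pass for Elovl6 (adjusted p = 0.118) or Acaca (adjusted p = 0.0617). Some genes that PPAR receptors switch on in fasting rose. Pdk4, the kinase that shuts the entry of pyruvate into the mitochondrion, rose 7.14-fold in AA and 2.64-fold in DMSO. Angptl4, a secreted lipase inhibitor, was near the floor at AA 24 h (2.30, 2.34 and 2.78) and read 7.92, 8.40 and 8.19 at AA 72 h, against 5.83, 5.73 and 6.15 at DMSO 72 h. Both 24 h groups of Angptl4 were near the floor, so no size of the difference is given. Of 21 genes on the fatty acid oxidation and PPAR list 8 rose and 2 fell in AA.

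Subunits of oxidative phosphorylation fell for 22 of 67 in AA (32.8%, against 22.8% over all genes) and rose for 7 (10.4%, against 30%), and the count of 7 lay between 2 and 4 without AA 24 h replicates 1, 2 or 3, or AA 72 h replicates 2 or 3, each left out in turn. In DMSO 10 rose and 1 fell, and 5 rose without DMSO 24 h replicate 3. The largest of these falls was that of the complex I subunit Ndufa12, by 0.50. Proteasome subunits fell for 26 of 34 in DMSO (76.5%, against 17.1% over all genes) and for 8 in AA, where 5 rose (3 without AA 72 h replicate 2). The difference was higher in AA for 8 and lower for none, against 18.7% and 13.7% over all genes. Without AA 72 h replicate 2, 5 were higher. The deubiquitinase subunit Psmd14 fell by 0.81 in AA and by 0.53 in DMSO. Autophagy and lysosome genes rose for 20 of 41 in AA and fell for 4, against 30% and 22.8% over all genes. In DMSO 8 rose (5 without DMSO 24 h replicate 3) and 15 fell, against 17.2% and 17.1% over all genes. The difference was higher in AA for 13 and lower for none, against 18.7% and 13.7% over all genes. The lysosomal mannosidase Man2b1 rose by 0.91 in AA and by 0.74 in DMSO. The autophagy protein gene Map1lc3a rose by 0.77 in AA, and its change exceeded that in DMSO by 1.01 (adjusted p = 0.000357).

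Many genes that stretch over long distances in the genome fell in AA. RNA polymerase has to cross the whole of a gene, introns included, to make its transcript. Gene length was taken from RefSeq (GRCr8), from the first to the last base of the gene, introns included, and was known for 9006 of the 9015 genes. Among the 182 genes over 300 kb, 144 fell (79.1%) and 13 rose (7.14%) in AA, with a median change of -1.31. Among the 986 genes of 100 to 300 kb, 49.1% fell and 13.0% rose. In the 3 shorter classes the share that fell was 17.2% (under 10 kb), 16.1% (10 to 30 kb) and 21.1% (30 to 100 kb). In DMSO the genes over 300 kb fell for 12.6% and rose for 19.8%, with a median of 0.05. Genes that fell at least 2-fold in AA had a median length of 132 kb, against 15.8 kb for those that rose at least 2-fold and 24.2 kb for all. Those that fell at least 2-fold in DMSO had a median of 28.2 kb.

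**Figure D5:**
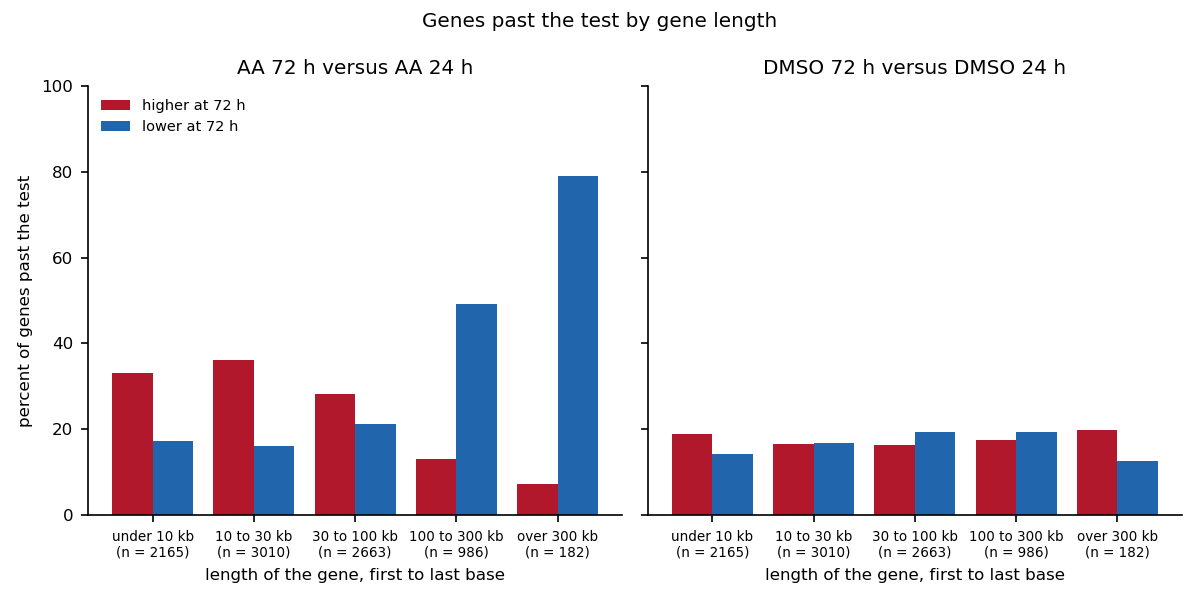
Percent of the tested genes that rose (red) or fell (blue) from 24 to 72 h in AA and in DMSO, by the length of the gene; n is the number of genes in each class. The blue bar climbs from 17.2% for genes under 10 kb to 79.1% for genes over 300 kb in AA, and lies between 12.6% and 19.5% in every class in DMSO.

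Under 16 other settings of the analysis, the share of genes over 300 kb that fell in AA lay between 74.2% and 80.8%. The longest class also had lower levels, with a median of 8.08 over all arrays, against 9.12 to 9.40 in the other classes. The 3′ to 5′ gap of beta-actin widened in the same AA 72 h arrays, as given above, and its part in the fall of long genes was not tested. Length is a description here, without a test.

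The largest falls among the ranked genes with both groups above the floor included 10 genes over 100 kb among 15, and the largest rises none among 15. Gphn, the gephyrin gene for synapse scaffolding and molybdenum cofactor synthesis, spans 529 kb. It read 8.70, 8.53 and 8.54 at AA 24 h and 5.57, 5.23 and 4.47 at AA 72 h, an 11.3-fold fall, and changed by -0.23 in DMSO. Enox2, a cell-surface oxidase gene of 322 kb, fell by 3.46 (log2), from 7.67, 7.76 and 7.64 to 4.43, 4.35 and 3.92. The heparan sulphate proteoglycan gene Gpc6, at 998 kb, read 9.94, 9.72 and 9.47 at AA 24 h and 7.02, 6.54 and 6.07 at AA 72 h. In DMSO Gpc6 rose 1.86-fold, from 10.35, 10.47 and 10.50 to 11.30, 11.34 and 11.35. Its difference of -4.07 was the largest downward one among the ranked genes with all 4 groups above the floor (adjusted p = 2.93e-10). Bbs9, a 425 kb gene of the ciliary BBSome, fell by 3.04 in AA and rose by 0.44 in DMSO. Of the 5 largest falls that ended near the floor, all were over 100 kb and 4 over 300 kb. Fggy, a carbohydrate kinase gene of 387 kb, read 8.32, 8.16 and 8.19 at AA 24 h and 3.03, 3.37 and 3.38 at AA 72 h, and it stayed between 8.38 and 8.73 in DMSO. Gmds, the first enzyme of GDP-fucose synthesis, at 527 kb, read 7.73, 7.76 and 7.56 and then 3.42, 3.61 and 2.60.

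Short genes were among the largest falls too. Mgp, the matrix Gla protein that holds back calcification, is 3.42 kb long and read 11.43, 10.83 and 10.61 at AA 24 h and 7.87, 7.20 and 7.38 at AA 72 h. It fell 11.1-fold in AA and changed by -0.34 in DMSO (adjusted p = 0.327). The entry annotated as Actr2-ps1 is a pseudogene of an actin-related protein, so its probe signal cannot be separated with certainty from that of the parent gene. Its fall of 3.05 was 1.95 without AA 72 h replicate 2.

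Matrix genes were split, with several large falls in both arms. Of 37 tested collagens, laminins and other matrix genes 16 fell and 9 rose in AA, and 15 fell and 10 rose in DMSO. Over all genes 22.8% fell and 30% rose in AA, and 17.1% fell and 17.2% rose in DMSO. The DMSO count of 10 was 5 without DMSO 24 h replicate 1 or DMSO 72 h replicate 2 and 6 without DMSO 72 h replicate 1. Collagen I (Col1a1) read 10.71, 10.02 and 9.77 at AA 24 h and 7.95 on average at AA 72 h, and fell 4.66-fold in AA and 4.89-fold in DMSO. Fbln2, a matrix glycoprotein, fell 10.0-fold in AA and 10.1-fold in DMSO, with a difference of 0.02 ± 0.30 (adjusted p = 0.975). Periostin (Postn) fell 3.65-fold in AA and 2.27-fold in DMSO, and osteopontin (Spp1), a kidney injury marker, fell 3.04-fold and 3.68-fold. P4ha1, the enzyme that hydroxylates collagen, rose 2.43-fold in AA from 24 to 72 h, and 0.31 (log2) in DMSO. The fibroblast markers, which share Col1a1 and Postn with these genes, fell as well. Of 7 tested, 5 fell and none rose in AA, and in DMSO 5 fell and 1 (Col3a1) rose. The 5 that fell were Col1a1, Col1a2, Acta2, Postn and S100a4 in both arms. In AA the summed level of the marker list (log2) went from 14.9 to 15.3 at AA 24 h to 14.5 to 14.8 at AA 72 h. In DMSO it was 14.7 to 14.97 at 24 h and 14.81 to 14.999 at 72 h. Their part in the matrix result was not tested.

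The gene of TGF-beta 1 (Tgfb1), a fibrotic cytokine, read 6.24, 5.69 and 5.94 at AA 24 h and 7.23, 6.89 and 6.64 at AA 72 h, and rose 1.96-fold in AA while it changed by -0.33 in DMSO (difference 1.30, adjusted p = 0.000585). The latency protein Ltbp1, whose gene spans 396 kb, fell 4.25-fold in AA, from 12.60, 12.12 and 12.05 to 10.51, 9.93 and 10.07. Of 32 tested genes of the pathway 13 rose and 9 fell in AA, where 30% of all genes rose and 22.8% fell. The direct TGF-beta and YAP target Ccn2 changed by 0.16 in both arms, and its call was lost in 8 of 16 settings. Vimentin (Vim) fell by 0.76 in AA and 0.52 in DMSO, and the fibrosis-associated S100a4 fell by 1.55 and 0.92. The difference passed for S100a4 (adjusted p = 0.00754) and not for Vim (adjusted p = 0.0986). Keratin 8 (Krt8) fell by 0.66 in AA and 1.10 in DMSO. Of 15 mesenchymal genes 7 fell and 1, the integrin Itga5, rose in AA, against 22.8% lower and 30% higher over all genes. Those that fell in AA fell in DMSO too, except Zeb2, which changed by -0.23 there (adjusted p = 0.456).

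Among the few proximal tubule genes above the filter, the directions differed. The water channel Aqp1 read 4.27, 3.91 and 3.02 at AA 24 h and 6.22, 5.94 and 6.17 at AA 72 h. In DMSO it read 3.52, 3.64 and 2.48 at 24 h and 8.48, 8.39 and 8.43 at 72 h, so it rose in both arms and ended lower in AA. Both 24 h groups were near the floor, so no size of the difference is given. The bicarbonate transporter Slc4a4, a gene of 452 kb, fell 4.44-fold in AA and changed by -0.06 in DMSO. Slc7a9, a subunit of the cystine transporter, rose 2.69-fold in AA and fell in DMSO to a mean of 3.94, near the floor. The brush border peptidase Mme fell by 1.29 in AA and 0.94 in DMSO, and the difference did not pass (adjusted p = 0.410).

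Several other regulators changed. Notch1, a receptor of cell fate signalling, rose 2.97-fold in AA, from 7.74, 7.57 and 7.61 to 9.33, 9.20 and 9.10, and changed by 0.08 in DMSO. Vegfa, the vascular growth factor, rose 2.53-fold in AA and fell 1.52-fold in DMSO, although a second probe set did not pass. Lamin B1 (Lmnb1), a nuclear envelope gene that falls in senescent cells, fell 2.40-fold in AA, from 10.51, 10.45 and 10.28 to 9.27, 9.09 and 9.07, and changed by 0.05 in DMSO. Of 15 genes on the senescence secretion list 10 rose and 2 fell in AA, and without AA 72 h replicate 2 only 5 rose. Over all genes 30% rose and 22.8% fell. The 10 include Gdf15, which passed the filter only through its AA 72 h arrays. The senescence list also holds Lmnb1, which is among those that fell, and Glb1, which rose by 0.46 in AA and 0.65 in DMSO. Neither encodes a secreted factor. The splicing factor Hnrnpa1 fell 3.61-fold in AA and by 0.47 (log2) in DMSO (difference -1.38, adjusted p = 6.34e-06). Another probe set of Hnrnpa1 changed in the opposite direction in AA. The metalloprotease Adam10 fell 5.24-fold in AA, from 10.80, 10.91 and 10.57 to 8.66, 7.91 and 8.54. In DMSO Adam10 fell by 0.67 (log2), and the difference was -1.72 (adjusted p = 4.31e-06). The clock-controlled transcription factor Hlf fell 2.94-fold in AA and rose 2.06-fold in DMSO (difference -2.60, adjusted p = 7.69e-05). Dyrk3, a kinase that dissolves stress granules, rose 10.4-fold in AA, from 5.30, 5.51 and 5.40 to 8.41, 8.89 and 9.02. Phospholamban (Pln), a brake on the calcium pump, was at 2.30 on all 3 AA 24 h arrays and read 8.75, 9.02 and 9.17 at AA 72 h, while DMSO stayed between 2.27 and 2.33.

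The remaining lists are given by their counts, to be read against 30% higher and 22.8% lower over all genes in AA. Glycolysis and hypoxia genes rose for 11 of 30 and fell for 5 in AA, and rose for 4 and fell for 11 in DMSO. Kidney injury markers rose for 7 of 12 (58.3%) and fell for 4 in AA. Epithelial junction and keratin genes rose for 6 of 11 (54.5%) and fell for 4 (36.4%). Ribosome biogenesis genes rose for 20 of 65 and fell for 6, but 13 rose without AA 72 h replicate 2 and 10 fell after quantile normalization. Splicing factors rose for 11 of 49 (7 without AA 72 h replicate 2) and fell for 19 (38.8%). RNA polymerase II and general transcription genes rose for 16 of 46 and fell for 4, and 10 rose without AA 24 h replicate 1 or AA 72 h replicate 2. Targets of SRF and YAP rose for 10 of 28 and fell for 6. Without AA 24 h replicate 2 only 5 of them rose, with probe sets averaged 6 rose, and without AA 72 h replicate 2 only 3 fell. Notch and Wnt genes rose for 7 of 18 and fell for 3.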

How the data were processed

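Biotin-labelled RNA of 18 cultures was hybridised to Affymetrix rat arrays. The deposited values are log2 expression values per probe set, made by the authors with GCRMA per the submitters' processing notes. No label or header states its version or settings. Of 31099 probe sets, 20826 carried 1 symbol in the platform annotation and gave 14217 genes, each represented by its probe set with the highest mean over the 18 arrays. The filter on low values kept the 9015 genes that reached log2 4 on 3 arrays or more. A gene could pass through the 3 arrays of 1 group alone, and its high level in that group was then set by the filter. limma 3.58.1 in R 4.3.3 fitted 6 group means with an intensity trend, and p-values were adjusted by Benjamini-Hochberg within each comparison at 0.05. The fit was tested on simulated data. RefSeq tables (GRCr8) gave gene lengths and promoters. The arrays give no read depth, and their number limits the precision. Genes were named as the largest changes, the largest differences between arms and the leading members of each list, with a fixed set of genes. The members, lists and rules were chosen with earlier results of these data known. Alternatives covered the filter, scaling, probe sets, variance model, arrays entering the fit, a replicate block and each array left out.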

Additional observations from a re-analysis of the deposited data

Results flagged for a closer look

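The 24 to 72 h change differed between AA and DMSO, by the test of the difference in limma, for 2921 genes. Symbols that start with LOC or RGD were not ranked. Among the other genes with all 4 groups above the floor, the AA change exceeded the DMSO change most for Depdc7 (3.40), Trib3 (3.34), Ifi27l2b (3.04), Hmox1 (2.97), Dyrk3 (2.88), Slc12a9 (2.74), Gsta1 (2.74) and Akr1b8 (2.73), all on the log2 scale. The AA change of Ifi27l2b alone was 1.11 and did not pass (adjusted p = 0.07). The AA change lay below the DMSO change most for Gpc6 (-4.07), Enox2 (-3.51), Bbs9 (-3.49), Xrcc4 (-3.40), Nubpl (-3.30), Atrnl1 (-3.28), Gphn (-3.27) and Mgp (-3.13). Groups of 3 arrays were not tested for outlying arrays.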

How the results depend on the processing

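The count of genes past the test in AA was 4752, between 4571 and 4808 under the other settings and between 4125 and 4962 with 1 array left out. The top of that range came without AA 6 h replicate 3, an alternative chosen after seeing the data. The DMSO count of 3095 ranged from 2767 to 3555 and from 2457 to 3326, and the count of differences, 2921, from 2615 to 3237 and from 2417 to 3174. Over all genes, same-numbered arrays deviated together little if at all (correlations of -0.04 to 0.12 in AA). With 3 arrays per group these values cannot decide whether the numbers pair the arrays. The BioB spike-in read 8.53, 8.19 and 8.38 on AA 24 h replicates 1, 2 and 3, and 8.78, 8.40 and 8.62 at DMSO 24 h. At DMSO 72 h it read 8.64, 8.35 and 8.55, in the same order, while at AA 72 h replicate 3 was lowest. With the replicate number as a block, 4808, 3112 and 2950 genes passed. Higher genes were 56.8% of the AA calls, 55.3% after centring and 51.0% after quantile normalization. The naming rule picked 224 genes, not all of which are described above. Of the 220 of them past the AA test, 199 passed in all 16 settings and 21 lost the call in at least 1, and none reversed. Signal near the floor of the array limits 56 of the 443 large rises and 103 of the 494 large falls.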
